A study of Mus musculus with 28 samples.

Results

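Macrophages of the neonatal mouse ovary were examined in single-cell RNA sequencing data by a rule on measured counts: a barcode was taken as a macrophage when it held at least 1000 detected genes, at most 20% mitochondrial UMIs (unique molecular identifiers, each standing for 1 captured RNA molecule) and at least 4 of the 6 markers *C1qa*, *C1qb*, *Tyrobp*, *Csf1r*, *Fcer1g* and *Cd68*. The rule found 184 of 38274 kept barcodes over 4 libraries, a share of 0.481% (95% exact Clopper-Pearson interval 0.414 to 0.555%). The members were thus chosen by the measured UMIs of these markers, and their levels in the single cells are given as a description. The single-cell libraries came from 7-day-old females, 1 library each from wild-type non-irradiated, wild-type irradiated, *Chek2*-/- non-irradiated and *Chek2*-/- irradiated ovaries, and each library pooled the ovaries of 4 females. Irradiated females received a whole-body dose of 0.5 Gy of gamma rays, non-irradiated females a sham exposure, and ovaries were collected 6 h later. *Chek2*-/- females carry the Chek2tm1b(EUCOMM)Hmgu allele, which is absent from the wild-type C57BL/6J females and is not restricted to any cell type. The same 4 conditions were measured in 24 bulk libraries of whole ovaries, 6 per group, with 17825167 to 32605747 estimated counts each.

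Tissue macrophages sense debris and damage, engulf dying cells and shape local inflammation through secreted chemokines. Their survival depends on CSF1R, the receptor for the ligands CSF1 and IL34. C1q, the recognition part of the classical complement pathway, is made by tissue-resident macrophages, and TYROBP and FCER1G are adaptors that pass signals from activating receptors through ITAM motifs. CD68 is a lysosomal membrane protein. CHEK2 is a kinase that passes the DNA damage signal to p53, which in turn raises the transcription of genes such as *Cdkn1a*, an inhibitor of the cell cycle.

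The rule found 44 of 9666 kept barcodes in the wild-type non-irradiated library, 69 of 10345 in the wild-type irradiated one, 41 of 9091 in the *Chek2*-/- non-irradiated one and 30 of 9172 in the *Chek2*-/- irradiated one. These are shares of 0.455% (0.331 to 0.611%), 0.667% (0.519 to 0.843%), 0.451% (0.324 to 0.611%) and 0.327% (0.221 to 0.467%). The irradiated share was 1.47 times the non-irradiated share in wild type, with an interval of 0.990 to 2.19, and 0.725 times in *Chek2*-/- (0.437 to 1.19). Both intervals hold 1, they cover counting error only, and with 1 library per condition no difference between conditions was tested.

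Many of these barcodes also carried the genes of a second cell type. With at least 4 markers of a granulosa, stromal, endothelial, oocyte, epithelial, perivascular or erythroid list as the limit, 18, 36, 12 and 8 of the members were mixed in the 4 libraries as ordered above, 74 in all. Stromal genes were met in 39 members, granulosa genes in 31, erythroid genes in 19, oocyte genes in 8, endothelial genes in 4, epithelial genes in 2 and perivascular genes in 1. The 8 members with oocyte genes were all in the wild-type libraries, 3 non-irradiated and 5 irradiated, and held 49.1% and 55.4% of all UMIs of the members there. A sum over all members is therefore weighted by oocyte RNA in wild type and not in *Chek2*-/-. The doublet caller Scrublet marked 1, 5, 1 and 0 of the members, all of them among the mixed ones.

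The 110 members with fewer than 4 markers of each of these lists, called unmixed below, numbered 26, 33, 29 and 22. Their shares were 0.269% (0.176 to 0.394%), 0.319% (0.220 to 0.448%), 0.319% (0.214 to 0.458%) and 0.240% (0.150 to 0.363%), so the highest share, in the wild-type irradiated library by the rule, came level with that of *Chek2*-/- non-irradiated ovaries. The irradiated over non-irradiated ratio of shares was 1.19 (0.688 to 2.06) in wild type and 0.752 (0.412 to 1.36) in *Chek2*-/-. Unmixed members were shallower than other kept barcodes, with a median of 8489, 7798, 9232 and 10896 UMIs against 14361, 14753, 16034 and 17738. This separation was chosen after the barcodes had been seen. Values below are for the unmixed members unless all 184 are named.

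**Figure D1:**
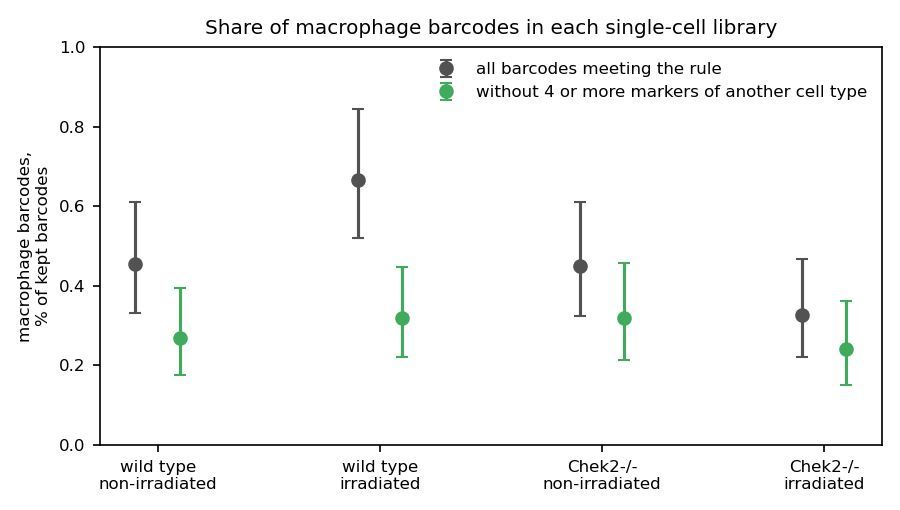
Share of macrophage barcodes in each single-cell library as a percent of kept barcodes, for all barcodes meeting the rule (grey) and for those without 4 or more markers of another cell type (green), with 95% exact binomial intervals. The grey wild-type irradiated point, 0.667%, is the highest of the 4, whereas the green points lie between 0.240% and 0.319% with overlapping intervals.

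At the edge of the rule, the 31 barcodes with exactly 4 of the 6 markers held 4 to 119 UMIs of these markers, with a median of 21.0, and a median of 9 of 18 other macrophage genes. The 53 barcodes just outside, with exactly 3 markers, held 3 to 40 UMIs, with a median of 8.0, and a median of 3 of those 18 genes. Of the barcodes outside, 41 of 53 carried markers of another cell type and 24 carried at least 4 oocyte markers, compared with 16 of 31 inside with markers of another type. No member barcode was shared between libraries, although 30 to 73 of the deposited barcodes were shared by each pair of libraries.

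The unmixed members carried the broader macrophage programme that the rule did not name. Of 18 such genes they detected a median of 15, from 1 to 18, and 103 of 110 detected at least 9. The genes with the highest level over all other kept barcodes were *Ms4a7*, at 984 against 0.0927 UMIs per 1000000 (CPM), *C1qc*, at 2538 against 0.260 CPM, and *Ccl12*, at 321 against 0.0335 CPM. *Adgre1*, which encodes the macrophage surface protein F4/80, stood at 417 against 0.0593 CPM, and *Trem2*, a lipid-sensing receptor that signals through TYROBP, at 861 against 0.134 CPM. *Lyz2*, which encodes a lysozyme, reached 7695 against 1.65 CPM, and *Pf4*, a CXC chemokine made by platelets and by resident macrophages, 3726 against 0.823 CPM. *Fcrls*, *C3ar1*, *Wfdc17*, *Fcgr1*, *F13a1*, *Ctss*, *Cd300c2* and *Clec4n* completed the 15 leading genes of 812 ranked. A cluster of cells against the rest is no test, and these folds are given as a description.

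More unmixed members held genes of a resident list than of monocyte or antigen-presenting lists, at different limits for each list. At least 3 of 10 resident genes, which include the mannose receptor gene *Mrc1* and the scavenger receptor gene *Stab1*, were detected in 90 of 110. At least 1 C1q gene was detected in 97, which the rule largely set, since it counted *C1qa* and *C1qb*. At least 2 of 5 monocyte genes were detected in 9 members, at least 4 of 7 MHC class II genes in 2 and at least 2 dendritic cell genes in 1. No unmixed member held 2 or more neutrophil, T or NK cell, B cell or mast cell markers. At least 4 of 14 genes of cell division were detected in 21 members, of which 6, 4, 6 and 5 were in the 4 libraries. Among the resident genes, *Vsig4* was at 0 UMIs in all 4 libraries and *Timd4*, a receptor for phosphatidylserine, was met in 1, 2, 4 and 1 members. *Cx3cr1*, the fractalkine receptor gene, stood at 1206, 945, 1098 and 1000 CPM and was detected in 80.8 to 97.0% of members.

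The 6 rule markers are described here for scale. *C1qa* stood at 2778, 3475, 3334 and 3347 CPM in the 4 libraries, and *C1qb* at 2463, 3067, 2816 and 2679 CPM. The 184 members, which made up 0.481% of kept barcodes, held 95.0 to 95.9% of all *C1qa* UMIs and 84.4 to 90.7% of all *Csf1r* UMIs. In contrast, only 33.6, 47.1, 28.0 and 26.0% of *Cd68* UMIs lay in the members, and *Cd68* was read at 1.95 to 3.89 CPM in granulosa and 4.04 to 7.11 CPM in stromal comparison barcodes. *Tyrobp* lay between, with 60.4, 81.7, 86.8 and 82.2% of its UMIs in members. Most *Cd68* UMIs of the single-cell libraries thus lay outside the barcodes that the rule chose.

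**Figure D2:**
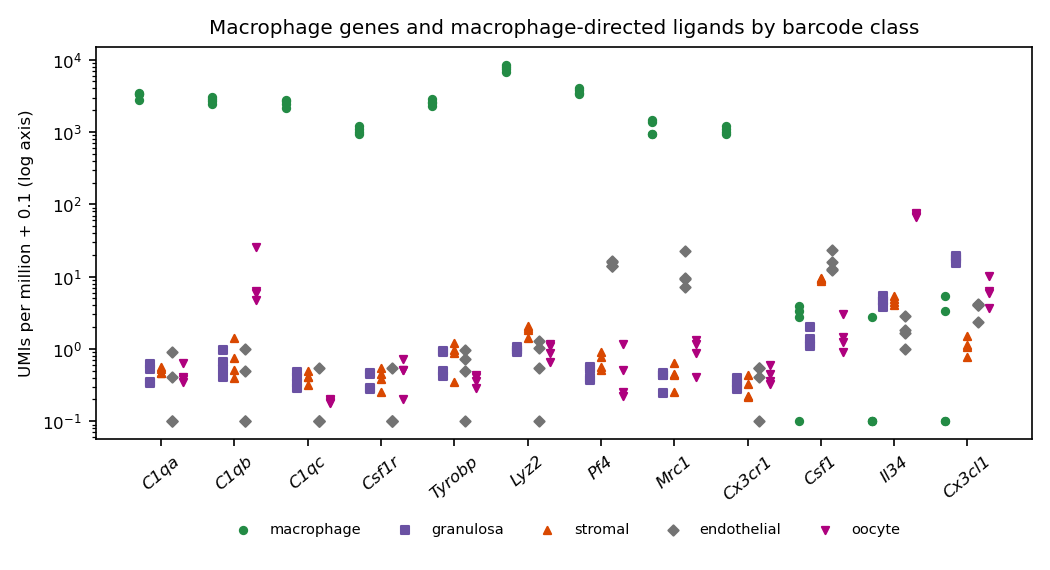
Levels of macrophage genes and of macrophage-directed ligands in UMIs per 1000000 plus 0.1 (log axis) for unmixed macrophage, granulosa, stromal, endothelial and oocyte barcodes, with 1 point for each of the 4 libraries. The C1q genes lie above 2000 in macrophages, whereas *Csf1*, *Il34* and *Cx3cl1* are highest in endothelial, oocyte and granulosa barcodes, and the *C1qb* point at 25.5 is the oocyte class of the wild-type irradiated library.

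The ligands of CSF1R and CX3CR1 were read mainly outside the macrophages. *Csf1*, a ligand of CSF1R, had 1, 1, 1 and 0 UMIs in the macrophages of the 4 libraries, compared with 23.5, 12.8, 16 and 12.2 CPM in endothelial and 9.04, 9.16, 9.40 and 8.66 CPM in stromal barcodes. *Il34*, the other ligand, had 0, 1, 0 and 0 UMIs in macrophages and stood at 69.9, 66.0, 75.0 and 73.0 CPM in oocytes, against at most 5.23 CPM in granulosa barcodes. *Cx3cl1*, the ligand of CX3CR1, had 0, 2, 1 and 0 UMIs in macrophages and 18.5, 19.1, 17.4 and 15.4 CPM in granulosa barcodes. The receptors *Csf1r*, at 1099, 934, 1229 and 1004 CPM, and *Cx3cr1* showed the reverse. The 3 ligands were each highest in a different class of barcodes.

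Radiation was compared within each genotype as the irradiated over non-irradiated ratio of CPM from summed UMIs. More chemokine and cytokine genes were higher than lower after irradiation in both genotypes. In wild type, 10 of 15 such genes with at least 20 UMIs were at least 1.5-fold higher and 1 was at least 1.5-fold lower, with a median log2 ratio of 1.18. Over all 4515 genes with as many UMIs, 10.6% were higher and 15.5% were lower by this limit, with a median of -0.08. In *Chek2*-/-, 8 of 15 were higher and 3 lower, with a median of 0.61, compared with 11.6% higher and 10.8% lower of 4329 genes and a median of 0.01. With 1 barcode left out per gene and genotype, the one that held most of its UMIs in either library, 8 of 15 were higher and 1 lower in wild type, with a median of 0.88, and 6 higher and 3 lower in *Chek2*-/-, with a median of 0.19. The limit is one of size, no p-value is given, and the list was chosen with earlier results of these data known. The share over all genes was not computed with a barcode left out, for this list or those below. UMIs were counted over both libraries of a genotype, so a gene could enter through the library where it was high.

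*Ccl4*, *Ccl3* and *Cxcl2*, which encode chemokines that draw monocytes, lymphocytes or neutrophils, had ratios above 3 in both genotypes. Among genes with at least 100 UMIs in both libraries together, *Ccl4* and *Cxcl2* were in the 5 highest of both genotypes, and *Ccl3* in those of *Chek2*-/-. They reached that limit through the irradiated library, so these ranks are a description only. *Ccl4* went from 16 UMIs in 26 wild-type non-irradiated macrophages to 435 UMIs in 33 irradiated ones, 61.5 against 1161 CPM, a ratio of 18.3 (11.5 to 33.3). *Cxcl2* went from 15 to 306 UMIs, a ratio of 13.7 (8.46 to 25.6), and *Ccl3* from 46 to 270 UMIs, a ratio of 4.04 (2.97 to 5.70). Without the top barcode, these ratios were 16.5, 9.88 and 3.68. In another set, all 184 members with the barcodes of 3 markers added, the wild-type *Cxcl2* ratio was 0.778. In *Chek2*-/- macrophages *Cxcl2* went from 26 to 206 UMIs, a ratio of 8.49 (5.73 to 13.5), *Ccl3* from 29 to 150 UMIs, a ratio of 5.56 (3.77 to 8.70), and *Ccl4* from 56 to 179 UMIs, a ratio of 3.46 (2.57 to 4.79). Of those 179 UMIs of *Ccl4*, 88 lay in 1 barcode, and without it the ratio was 1.83. The intervals cover counting error only, and the difference between the genotypes was not tested.

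The chemokine genes differed in how many macrophages held them. *Ccl3* was detected in 8 of 26 wild-type non-irradiated and 24 of 33 irradiated macrophages, and in 13 of 29 and 18 of 22 of *Chek2*-/-. *Cxcl2* was detected in fewer, 3 of 26 and 17 of 33 in wild type and 3 of 29 and 7 of 22 in *Chek2*-/-, and 103 of its 306 UMIs in the wild-type irradiated library lay in 1 barcode. After thinning each barcode to 3000 UMIs, which left out 0, 3, 5 and 1 shallower macrophages, *Ccl3* was detected in 23.1% and 66.7% in wild type and in 25.0% and 47.6% in *Chek2*-/-. *Ccl4* was detected in 11.5% and 53.3%, and in 12.5% and 38.1%, at this depth, compared with 23.1% and 63.6%, and 27.6% and 68.2%, before thinning. *Cxcl2* was detected in 7.69% and 46.7%, and in 4.17% and 28.6%, against 11.5% and 51.5%, and 10.3% and 31.8%, before. Each of these shares was above that in granulosa barcodes, where *Ccl3*, *Ccl4* and *Cxcl2* were detected in at most 1.35% before and at most 0.496% after thinning. The macrophages had median depths of 7798 to 10896 UMIs and the granulosa barcodes of 19171 to 22667.

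Other secreted factors followed less uniformly. *Ccl2*, a ligand of the monocyte receptor CCR2, had ratios of 2.26 (1.65 to 3.18) in wild type and 2.21 (1.62 to 3.05) in *Chek2*-/-, and *Il1b*, an inflammatory cytokine gene, 1.91 (1.18 to 3.26) and 2.49 (1.56 to 4.15), with 1.10 and 1.66 without the top barcode. *Cxcl16* stood at 4.42 (2.48 to 9.22) and 1.53 (0.953 to 2.49), *Tnf* at 3.09 (1.25 to 11.2) and 1.66 (0.683 to 4.44), *Ccl9* at 2.26 (1.42 to 3.84) and 0.748 (0.443 to 1.23), and *Ccl7* at 1.16 (0.889 to 1.53) and 2.80 (1.88 to 4.32). *Ccl6* was lower in both genotypes, at 0.425 (0.229 to 0.756) and 0.410 (0.216 to 0.716). *Ccl24* was lower in *Chek2*-/-, at 0.238 (0.0978 to 0.474), and stood at 1.13 (0.676 to 1.95) in wild type. *Cxcl10*, an interferon-responsive chemokine gene, rested on few molecules, with 3 and 22 UMIs in wild type and 25 and 1 in *Chek2*-/-, 13 of those 25 in 1 barcode. *Pf4*, the member of this list with most UMIs, stood at 1.18 (1.08 to 1.28) and 1.13 (1.04 to 1.24). The response was therefore not shared by every secreted factor.

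**Figure D3:**
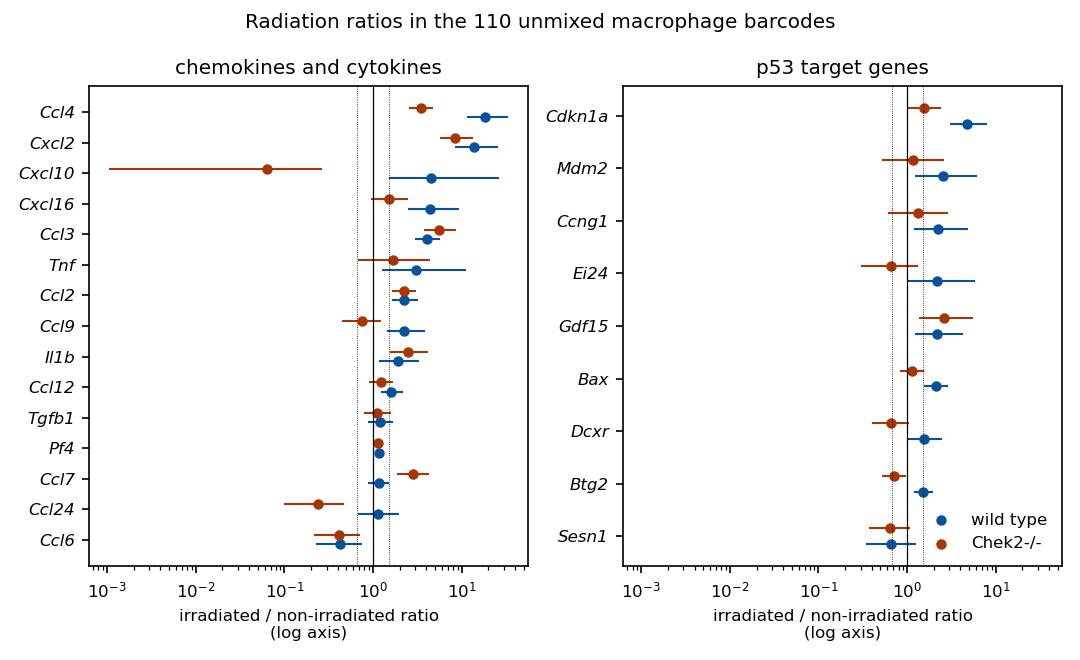
Irradiated over non-irradiated ratios of UMIs per 1000000 in the 110 unmixed macrophage barcodes (log axis) for wild type (blue) and Chek2-/- (red), with 95% exact intervals that cover counting error and dotted lines at the 1.5-fold limits, for chemokine and cytokine genes (left) and p53 target genes (right) with at least 20 UMIs in each genotype. Ratios of *Ccl4*, *Cxcl2* and *Ccl3* lie right of 1.5 in both genotypes, from 3.46 to 18.3, whereas *Cdkn1a* lies at 4.74 in wild type and 1.54 in *Chek2*-/-.

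When all 184 members were summed, *Ccl4*, *Cxcl2* and *Ccl3* stayed higher in both genotypes, with smaller wild-type ratios. *Ccl4* stood at 5.09 in wild type and 4.58 in *Chek2*-/-, *Cxcl2* at 3.12 and 3.63, and *Ccl3* at 2.33 and 4.62. Wild-type *Cxcl10* and *Cxcl1* had larger ratios than in the unmixed members, 7.90 against 4.47 and 11.4 against 5.33. In wild type *Ccl24* (0.563), *Pf4* (0.762) and *Tgfb1* (0.957) turned to below 1, and in *Chek2*-/- *Tgfb1* (0.946) did so, whereas *Ccl9* (1.20) turned to above 1. Of this list, 10 of 17 genes were higher and 2 lower in wild type, and 7 of 15 higher and 3 lower in *Chek2*-/-. Over all genes 13.5% were higher and 14.7% lower of 11118 in wild type, and 11.8% were higher and 11.6% lower of 6951 in *Chek2*-/-. The levels of *C1qa*, *C1qb* and *C1qc* turned with the set: their wild-type ratios were 0.848, 0.868 and 0.892 over all members and 1.25, 1.24 and 1.25 in the unmixed ones. The RNA of other cell types in the irradiated members differed from that in the non-irradiated ones. In wild type higher were 6 of 6 endothelial, 3 of 3 epithelial, 2 of 2 perivascular, 3 of 6 oocyte and 1 of 6 stromal genes with enough UMIs, and lower were 4 of 4 erythroid, 1 of 6 granulosa and 1 of 6 stromal genes. For *Chek2*-/- members 4 of 4 erythroid, 3 of 4 stromal and 1 of 6 granulosa genes were higher and 6 of 6 endothelial and 2 of 6 granulosa genes lower. Its part in the ratios was not tested beyond leaving the mixed barcodes out. When the 53 barcodes with exactly 3 markers were added, which held 8083017 UMIs against 4478980 in the members and 24 of which carried oocyte genes, the chemokine counts went the other way. Then 3 of 17 were higher and 6 lower in wild type, and 2 of 16 higher and 11 lower in *Chek2*-/-, beside 23.9% and 25.2%, and 25.5% and 23.2%, over all genes. *Ccl4* stayed at 3.07 and 1.60 and *Ccl3* at 1.40 and 1.61. The added barcodes held 572451 non-irradiated and 3595615 irradiated UMIs in wild type, and 974736 and 2940215 in *Chek2*-/-. Those with oocyte genes numbered 2 and 9 in wild type, and 3 and 10 in *Chek2*-/-. The part of this RNA in the counts was not tested.

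Promoter sequences are shown for the chemokine genes that share a kappa B motif, the element bound by NF-kappa B, and for a pair of C1q genes. The 200 bases upstream of the start site were taken from RefSeq for GRCm38.p6 and read on the strand of the gene, with the motif in capitals. The letters GGAATTTCC, searched on both strands, were found in 3 of 14 chemokine and cytokine promoters with an entry, those of *Cxcl1*, *Cxcl2* and *Cxcl10*, compared with 0.250% of 32851 promoters. The motif starts 70 bases upstream of the start site in *Cxcl1*, 96 in *Cxcl2* and 158 in *Cxcl10*, where it lies on the opposite strand. A second kappa B form, GGGACTTTC, was found in 0 of 14, compared with 0.240% of all, and *Ccl3* held neither form in this window. *Ccl4* had no entry. The promoters are *Cxcl1* at chr5:90891045-90891244 (+), *Cxcl2* at chr5:90903699-90903898 (+) and *Cxcl10* at chr5:92348890-92349089 (-).
Cxcl1: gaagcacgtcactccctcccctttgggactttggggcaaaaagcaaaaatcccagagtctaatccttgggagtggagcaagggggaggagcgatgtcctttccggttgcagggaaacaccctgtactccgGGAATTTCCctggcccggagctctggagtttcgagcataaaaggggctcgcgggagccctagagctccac
Cxcl2: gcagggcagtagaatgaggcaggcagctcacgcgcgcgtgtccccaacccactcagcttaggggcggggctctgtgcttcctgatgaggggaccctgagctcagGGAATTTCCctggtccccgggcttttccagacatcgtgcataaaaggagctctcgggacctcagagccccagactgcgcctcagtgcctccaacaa
Cxcl10: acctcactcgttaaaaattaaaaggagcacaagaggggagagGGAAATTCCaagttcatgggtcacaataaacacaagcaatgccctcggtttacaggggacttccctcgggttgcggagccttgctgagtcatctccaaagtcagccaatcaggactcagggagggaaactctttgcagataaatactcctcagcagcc
A match is a description of letters and not of a bound site.

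The C1q genes lie next to each other on chromosome 4, and AGGAAGT, a core that PU.1, the factor encoded by *Spi1*, can bind, was found in the promoters of *C1qb* at chr4:136886201-136886400 (-) and *C1qc* at chr4:136892915-136893114 (-). It starts 53 and 195 bases upstream of the start site, on the opposite strand in both, and is in capitals below.
C1qb: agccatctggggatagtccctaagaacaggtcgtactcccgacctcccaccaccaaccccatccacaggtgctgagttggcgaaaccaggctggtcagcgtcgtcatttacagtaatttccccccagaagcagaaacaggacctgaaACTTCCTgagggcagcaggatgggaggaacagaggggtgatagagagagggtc
C1qc: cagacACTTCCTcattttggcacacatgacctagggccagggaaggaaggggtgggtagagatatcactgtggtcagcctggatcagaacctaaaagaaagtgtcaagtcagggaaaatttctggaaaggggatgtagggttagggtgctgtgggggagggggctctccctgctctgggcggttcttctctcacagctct
Over the list of other macrophage genes, 4 of 17 promoters searched held these letters, those of *Ptprc*, *Fcgr1*, *C1qc* and *Lyz2*, and 3 of 14 of the chemokine and cytokine list, those of *Pf4*, *Ccl6* and *Tnf*, compared with 6.34% of 32851 promoters. The AP-1 form TGACTCA was found in 1 of 3 rule marker promoters, that of *Cd68*, in 2 of 14 chemokine and cytokine promoters, those of *Il1a* and *Cxcl10*, in 0 of 17 of the other macrophage genes and in 3.66% of all.

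Genes that p53 raises were higher in irradiated wild-type macrophages and mostly not in *Chek2*-/- ones. In wild type, 10 of 11 p53 target genes with at least 20 UMIs were at least 1.5-fold higher and 1 was lower, with a median log2 ratio of 1.11. In *Chek2*-/-, 2 of 10 were higher and 3 lower, with a median of -0.15. The shares over all genes were 10.6% higher and 15.5% lower in wild type and 11.6% and 10.8% in *Chek2*-/-. Without the top barcode of each gene, 6 of 11 were higher and 0 lower in wild type and 0 of 10 higher and 2 lower in *Chek2*-/-. No share over all genes was computed for that removal. *Btg2* (1.39), *Dcxr* (1.43), *Plk2* (1.40) and *Gdf15* (1.19) then no longer reached the limit in wild type. *Cdkn1a* went from 22 to 153 UMIs in wild type, 84.5 against 408 CPM, a ratio of 4.74 (3.08 to 7.94), and from 36 to 51 UMIs in *Chek2*-/-, 118 against 182 CPM, a ratio of 1.54 (0.988 to 2.43). *Bax*, whose product permeabilises mitochondria in apoptosis, stood at 2.11 (1.56 to 2.93) and 1.14 (0.840 to 1.55), *Btg2*, an antiproliferative gene, at 1.52 (1.19 to 1.98) and 0.716 (0.527 to 0.962), and *Ccng1*, a cyclin gene, at 2.25 (1.19 to 4.85) and 1.32 (0.614 to 2.90). *Gdf15*, a stress cytokine gene, stood at 2.17 (1.22 to 4.27) in wild type, where 13 of 15 non-irradiated and 24 of 48 irradiated UMIs lay in 1 barcode each, and only the latter was left out above. The *Chek2*-/- ratio was 2.62 (1.37 to 5.57), where 26 of 32 irradiated UMIs lay in 1 barcode, and 0.544 without the top barcode. *Sesn1* was lower in both, at 0.664 (0.347 to 1.26) and 0.643 (0.369 to 1.08). The difference between genotypes was not tested. Over all 184 members 12 of 22 target genes were higher and 1 lower in wild type, beside 13.5% and 14.7% over all genes. In *Chek2*-/- these were 3 of 13 and 1, beside 11.8% and 11.6%. With barcodes of 3 markers added, 14 of 25 were higher and 3 lower in wild type, and 6 of 22 higher and 6 lower in *Chek2*-/-, beside the shares over all genes given above for that set.

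Stromal RNA was also higher in the unmixed members of the wild-type irradiated library. The 6 stromal markers summed to 142 CPM in wild-type non-irradiated and 363 CPM in irradiated unmixed members, and to 193 and 104 CPM in *Chek2*-/-, with 5, 6, 6 and 6 of them detected. *Col1a1*, a collagen gene, had 7 and 68 UMIs in wild type, a ratio of 6.34 (3.10 to 17.4) and of 2.56 without the top barcode, and *Col1a2* stood at 2.44 (1.34 to 5.06). The 6 granulosa markers summed to 104, 104, 105 and 92.9 CPM in the 4 libraries, and *Foxl2* among them had 1 and 13 UMIs in wild type. The 5 erythroid markers summed to 231 and 96.1 CPM in wild type and 154 and 171 CPM in *Chek2*-/-, and the 6 oocyte markers to 80.7 and 40 CPM and to 45.9 and 60.7 CPM. The part of this RNA in the wild-type p53 and chemokine ratios was not tested.

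At 3000 UMIs *Cdkn1a* was detected in 11.5% of wild-type non-irradiated and 60.0% of irradiated macrophages, and in 12.5% and 19.0% of *Chek2*-/- ones. In granulosa barcodes it was detected in 1.14% and 15.9%, and in 0.496% and 1.5%, at the same depth. Before thinning the shares were 23.1% and 69.7%, and 37.9% and 68.2%, in macrophages, and 4.77% and 41.8%, and 3.63% and 6.74%, in granulosa barcodes. *Mdm2*, *Phlda3* and *Ccng1* gave no such difference in detection at this depth. Their summed wild-type ratios were 2.52 (1.23 to 6.22), 2.72 (1.07 to 9.90) and 2.25. At 3000 UMIs *Mdm2* was detected in 15.4% of non-irradiated and 13.3% of irradiated wild-type macrophages, *Phlda3* in 11.5% and 3.33% and *Ccng1* in 11.5% and 16.7%. In granulosa barcodes the shares were 12.4% and 16.6%, 9.21% and 24.8%, and 3.93% and 18.3%. Before thinning the macrophage shares were 34.6% and 51.5%, 11.5% and 30.3%, and 26.9% and 60.6%, at lower depth than the granulosa barcodes. In the irradiated library all 3 thinned shares were at or below those of granulosa barcodes, and no change in these genes is read from detection. *Bax* was detected at 3000 UMIs in 46.2% and 66.7% of wild-type macrophages and in 45.8% and 61.9% of *Chek2*-/- ones. Its detection was thus higher in the irradiated library of both genotypes, with overlapping intervals. In granulosa barcodes *Bax* was detected in 28.0% and 54.1%, and in 28.6% and 32.6%, at this depth.

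Some single genes were picked after their values were seen, with no gene list or share over all genes behind them. *Ccrl2* and *Id2* were among the 5 highest wild-type ratios. *Hmox1*, which encodes the haem-degrading enzyme heme oxygenase 1, stood at 3101 and 8056 CPM in wild type, a ratio of 2.60 (2.40 to 2.81), and at 3186 and 4097 CPM in *Chek2*-/-, a ratio of 1.29 (1.18 to 1.40). *Nfkbia*, an NF-kappa B inhibitor and target gene, stood at 119 and 459 CPM, a ratio of 3.8 (2.62 to 5.85), and at 308 and 336 CPM, a ratio of 1.09 (0.810 to 1.47). *Ccrl2*, an atypical chemokine receptor gene, had 1 and 111 UMIs in wild type, a ratio of 51.6 (13.6 to 3073), and 30 and 35 in *Chek2*-/-, a ratio of 1.27 (0.758 to 2.14). It was detected in 1 of 26 and 12 of 33 wild-type macrophages, and in 6 of 29 and 12 of 22 of *Chek2*-/-. *Cd14*, a co-receptor for bacterial lipopolysaccharide, stood at 3.07 (2.24 to 4.36) and 2.04 (1.44 to 2.95), and *Id2* at 5.02 (3.09 to 9.12) and 2.35 (1.57 to 3.64). For *Nfkbia* and *Ccrl2* the level in the *Chek2*-/- non-irradiated library, at 308 and 98.3 CPM, was above that in the wild-type non-irradiated one, at 119 and 3.84 CPM.

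Immediate early genes, which the warm enzymatic dissociation of tissue can raise in any cell, were also higher in part in the unmixed members of the wild-type irradiated library. Of 11 such genes 5 were higher and 0 lower in wild type, with a median log2 ratio of 0.47, beside 10.6% higher and 15.5% lower over all genes. In the *Chek2*-/- library 0 were higher and 1, *Ier2* at 0.625 (0.427 to 0.898), was lower, with a median of -0.08, beside 11.6% and 10.8% over all genes. Without the top barcode 4 of 11 were higher in wild type and 3 of 11 in *Chek2*-/-. Over all 184 members 2 of 12 were higher and 0 lower in wild type, with a median of -0.04, and 0 higher and 4 lower in *Chek2*-/-, with a median of -0.39. *Junb* stood at 2.27 (1.87 to 2.79) and 1.45 (1.19 to 1.76), *Zfp36* at 2.40 (1.86 to 3.16) and 0.895 (0.706 to 1.13), and *Atf3* at 2.48 (1.61 to 4.04) and 1.04 (0.722 to 1.5). *Fos* stood at 1.38 (1.21 to 1.58) and 1.26 (1.09 to 1.46). Their part in the chemokine values was not tested.

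Some genes of macrophage residence were lower after irradiation, *Mrc1* and *Stab1* in both genotypes. In wild type 4 of 7 resident genes with enough UMIs were at least 1.5-fold lower and 0 higher, with a median of -0.64, compared with 15.5% lower over all genes. In *Chek2*-/- 1 of 7 was lower and 1 higher, with a median of -0.08, compared with 10.8% and 11.6%. Without the top barcode 3 of 7 were lower and 0 higher in wild type, and 1 lower and 1 higher in *Chek2*-/-. *Mrc1* stood at 1460 and 937 CPM in wild type, a ratio of 0.642 (0.553 to 0.744), and at 1390 and 950.1 CPM in *Chek2*-/-, a ratio of 0.684 (0.584 to 0.799). It was detected in more irradiated than non-irradiated macrophages, 93.9% against 73.1% in wild type and 81.8% against 72.4% in *Chek2*-/-, or 80.0% against 69.2% and 76.2% against 75.0% at 3000 UMIs, with overlapping intervals. *Stab1* stood at 0.722 (0.631 to 0.827) and 0.640 (0.552 to 0.739), and *F13a1*, a coagulation factor gene, at 0.516 (0.383 to 0.690) and 0.874 (0.662 to 1.15). *Pf4*, also of this list, stood above 1 in both genotypes, as given above. *Cbr2*, 1 of the 4 lower in wild type, rested on few UMIs, with an interval that holds 1. *Lyve1*, a hyaluronan receptor gene, stood at 0.599 (0.375 to 0.95) in wild type and 2.61 (1.88 to 3.72) in *Chek2*-/-, where 88 of 123 irradiated UMIs lay in 1 barcode and the ratio without the top barcode was 0.847.

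The values of cell division genes rested on few barcodes. Of 7 such genes with enough UMIs 5 were lower and 1 higher in wild type, with a median of -1.40, beside 15.5% and 10.6% over all genes. Of 13 in *Chek2*-/- 3 were lower and 1 higher, with a median of -0.25, beside 10.8% and 11.6%. Over all 184 members 4 of 14 were lower and 1 higher in wild type, with a median of 0.01, and 2 lower and 1 higher in *Chek2*-/-, with a median of -0.16. Without the top barcode of each gene 2 of 7 were lower in wild type, with a median of -0.06, and 4 of 13 in *Chek2*-/-, with a median of -0.30. *Birc5*, which encodes survivin, had 17 and 4 UMIs in wild type, a ratio of 0.179 (0.0400 to 0.501) and of 0.243 without the top barcode. *Mki67*, a marker of division, stood at 0.378 (0.185 to 0.721) and 0.458 (0.286 to 0.704), and at 0.998 and 0.726 without the top barcode.

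Lysosomal and interferon-stimulated genes are set beside the shares over all genes, 10.6% higher and 15.5% lower in wild type and 11.6% and 10.8% in *Chek2*-/-. None of the 15 lysosomal genes in wild type and 16 in *Chek2*-/- was past the 1.5-fold limit, with medians of 0.15 and -0.09, and of 18 other macrophage genes 2 were higher and 1 lower in wild type and 1 higher in *Chek2*-/-. Of 12 interferon-stimulated genes 0 were higher and 5 lower in wild type, with a median of -0.37, and of 11 in *Chek2*-/- 2 were higher and 2 lower, with a median of 0.17. *Isg15* stood at 0.413 (0.223 to 0.731) and 0.268 (0.103 to 0.564). After thinning, it was detected in 11.5% of non-irradiated and 13.3% of irradiated wild-type macrophages. In *Chek2*-/- these shares were 8.33% and 14.3%. *Ifitm3*, also interferon-inducible, was then detected in 34.6% and 40.0%, and in 33.3% and 66.7%. Detection of these genes was thus not lower after irradiation. Over all 184 members 1 of 19 listed genes was higher and 9 lower in wild type, and 2 of 13 and 2 in *Chek2*-/-. No count without the top barcode was made for this list. The MHC class II gene *H2-Aa* had 169 UMIs in wild-type non-irradiated macrophages, 168 of them in 1 barcode that also held the 7 UMIs of *Xcr1* and the 6 of *Clec9a*, both markers of conventional dendritic cells. It had 0 UMIs in the wild-type irradiated library, at least 81.1-fold lower against a floor of 3 UMIs in that library, and this fold is the work of that barcode. *Gas6*, the bridging ligand by which TAM receptors bind dying cells, stood at 1.28 (1.03 to 1.59) and 0.740 (0.581 to 0.937).

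The bulk libraries were not used by the rule, and the macrophage genes were tested there across 6 libraries per group, each from paired ovaries, where fewer macrophages and less RNA per macrophage cannot be told apart. *Chek2* itself, the deleted gene, was at 18.5 to 24.6 TMM-scaled CPM in wild-type and 2.88 to 4.53 CPM in *Chek2*-/- libraries. With Benjamini-Hochberg adjusted p-values from edgeR's quasi-likelihood fit, 646 of 26790 genes (2.41%) changed with irradiation in wild type, 3 (0.0112%) in *Chek2*-/-, 277 (1.03%) differed in their response between genotypes and 1430 (5.34%) differed between genotypes without irradiation. None of the 6 rule markers and none of 18 other macrophage genes changed in any of these 4 comparisons. At an unadjusted p under 0.05 there were 0 rule markers in each, and 3, 4, 0 and 1 of the other macrophage genes, and DESeq2 also called none of them.

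A pair of libraries stood apart in these genes. The summed neutrophil list, 7 genes, was at 1432 CPM in wild-type irradiated replicate 3 and 1663 CPM in *Chek2*-/- irradiated replicate 2, compared with 0.452 to 14.3 CPM in the other 22 libraries. The summed monocyte list, 5 genes, was also highest there, at 203 and 127 CPM, against at most 25.6 CPM in the other 22. Its median log2 change with irradiation was 3.75 in wild type and 2.24 in *Chek2*-/-, and 0.00 and -0.24 without both libraries. No monocyte gene was called. *Tyrobp* was at 2.05, 2.23 and 2.67 CPM (lowest, median and highest) in wild-type non-irradiated, 2.02, 2.32 and 14.9 in wild-type irradiated, 1.49, 1.72 and 3.38 in *Chek2*-/- non-irradiated and 1.19, 1.92 and 16.2 CPM in *Chek2*-/- irradiated libraries. The groups overlapped and the highest values were those of the pair. Its log2 fold change with irradiation was 0.95 (SE 0.579, adjusted p = 0.603, edgeR) in wild type and 1.01 (SE 0.577, adjusted p = 1.00) in *Chek2*-/-, and 0.01 and -0.18 without both libraries. *Fcer1g* gave 0.82 and 0.91 with them and 0.04 and -0.02 without them. Over the 18 other macrophage genes, several of which neutrophils share, the median log2 fold change was 0.46 in wild type and 0.53 in *Chek2*-/-, against 0.11 and 0.06 without them, with medians over all genes of 0.00 or -0.01.

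The other 4 rule markers also gave no call. *C1qa* was at 2.86, 3.43 and 4.75 CPM in wild-type non-irradiated and 2.86, 4.30 and 4.87 CPM in wild-type irradiated libraries, with 2.14, 3.03 and 5.80 CPM and 2.44, 3.10 and 4.02 CPM in *Chek2*-/-. The groups overlapped, and the log2 fold change with irradiation was 0.20 (SE 0.209, adjusted p = 0.841, edgeR) in wild type and -0.06 (SE 0.209, adjusted p = 1.00) in *Chek2*-/-. *C1qb* gave 0.20 (SE 0.168) and 0.21 (SE 0.168), and *Cd68* 0.25 (SE 0.147) and 0.04 (SE 0.147). *Csf1r* ran from 5.37 to 14.9 CPM, with 14.9 in wild-type irradiated replicate 3 and 13.9 in *Chek2*-/- non-irradiated replicate 6, and its log2 changes were 0.34 (SE 0.231) and 0.10 (SE 0.230), or 0.16 and -0.05 without the 2 neutrophil-rich libraries. No difference in these markers between irradiated and non-irradiated ovaries was detected at these errors.

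**Figure D4:**
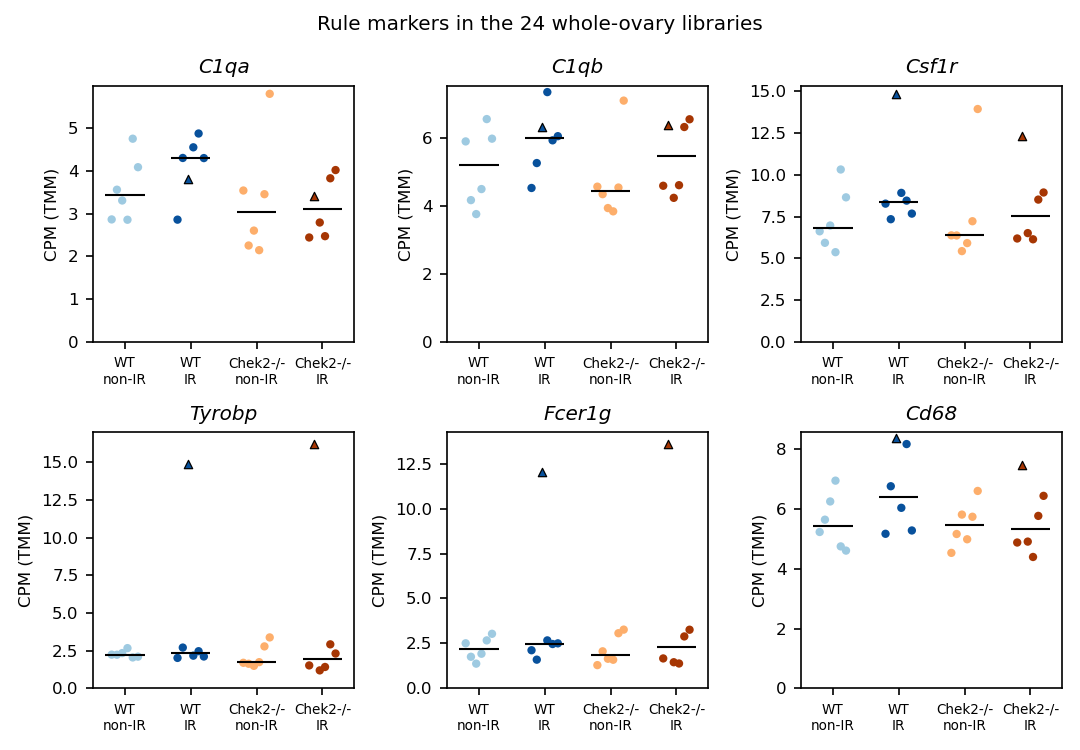
The 6 rule markers in TMM-scaled CPM in the 24 whole-ovary libraries, 6 per group, with 1 point per library and a line at the group median. Triangles are the 2 libraries with high neutrophil genes, which hold the highest *Tyrobp* (14.9 and 16.2) and *Fcer1g* (12 and 13.6) values, whereas *C1qa* and *C1qb* overlap between all groups.

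In whole ovaries no change of chemokine genes with irradiation was called. Of 20 chemokine and cytokine genes 0 changed in either genotype by edgeR or DESeq2. That count is near the shares over all genes, 2.41% in wild type and 0.0112% in *Chek2*-/- by edgeR. At an unadjusted p under 0.05 there were 0 by either tool, beside 3059 and 1179 of 26790 genes by edgeR. *Ccl3* was at 0.671, 1.06 and 1.62 CPM in wild-type non-irradiated and 0.739, 1.36 and 1.84 CPM in wild-type irradiated ovaries, and its log2 change was 0.20 (SE 0.496, adjusted p = 0.962, edgeR). *Ccl4* gave -0.18 (SE 0.761) and *Cxcl2* -0.52 (SE 0.672) in wild type, with 1.02 (SE 0.735) and -0.72 (SE 0.617) in *Chek2*-/-, and *Ccl2* gave -0.57 (SE 0.553) and -0.12 (SE 0.541). All of these groups overlapped. For comparison, the wild-type *Ccl4* ratio in unmixed macrophages was 4.20 on the log2 scale, and it was smaller over all 184 members, as given above. Those 184 members held 38.1% of the *Ccl4* UMIs in the wild-type non-irradiated and 71.1% in the wild-type irradiated single-cell library. The bulk ovaries were not dissociated and all 4 single-cell libraries were, and the part of this in the values was not tested.

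*Cxcl1*, a neutrophil-attracting chemokine gene, was the exception between genotypes. It was at 2.64, 4.20 and 7.90 CPM in wild-type and 10.3, 12.5 and 48.0 CPM in *Chek2*-/- non-irradiated ovaries, and these groups did not overlap. Of all genes, 5.34% were called in this comparison. The log2 fold change was 1.96 (SE 0.371, adjusted p = 0.00442, edgeR's quasi-likelihood test). Macrophages held 1, 11, 0 and 0 of its UMIs in the 4 single-cell libraries, whereas endothelial barcodes held 50.7, 70.5, 95.1 and 126 CPM. Among genes for the uptake of dying cells and lysosomal breakdown, *Tyro3*, a TAM receptor gene, was lower in *Chek2*-/- non-irradiated ovaries, with a log2 difference of -0.37 (SE 0.0818, adjusted p = 0.0118, edgeR). *Lrp1*, an endocytic receptor gene, gave -0.45 (SE 0.121, adjusted p = 0.0301, edgeR) and *Npc2*, a cholesterol carrier gene, -0.24 (SE 0.0653, adjusted p = 0.0312, edgeR). These were 2 of 12 and 1 of 16 genes of their lists, and the members held at most 2.08% of the UMIs of any of these 3 genes in a single-cell library.

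*Il34* was the one macrophage-directed ligand that changed. It was at 22.2, 24.5 and 26.4 CPM in wild-type non-irradiated and 16.6, 19.0 and 23.5 CPM in wild-type irradiated ovaries, which overlapped in range, and the log2 change was -0.36 (SE 0.0729, adjusted p = 0.00451, edgeR). In *Chek2*-/- ovaries it was at 22.9, 25.1 and 27.4 and at 23.6, 26.9 and 28.1 CPM, with a change of 0.07 (SE 0.0719, adjusted p = 1.00). The difference between genotypes was 0.43 (SE 0.102, adjusted p = 0.0365), and its adjusted p ran from 0.00342 to 0.104 over 29 alternatives, 22 of which ended the call. In single cells the *Il34* level within oocytes was 69.9 and 66.0 CPM in the wild-type libraries, with 281 and 154 oocyte barcodes there. The *Chek2*-/- libraries held 81 non-irradiated and 172 irradiated oocyte barcodes. Whether oocyte number bears on the bulk level was not tested. *Csf1* was at 27.8 to 41.6 and 30.2 to 37.5 CPM and *Cx3cl1* at 29.2 to 44.0 and 32.6 to 42.9 CPM in wild type, with changes of -0.02 (SE 0.180, adjusted p = 0.999) and 0.20 (SE 0.108, adjusted p = 0.514).

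**Figure D5:**
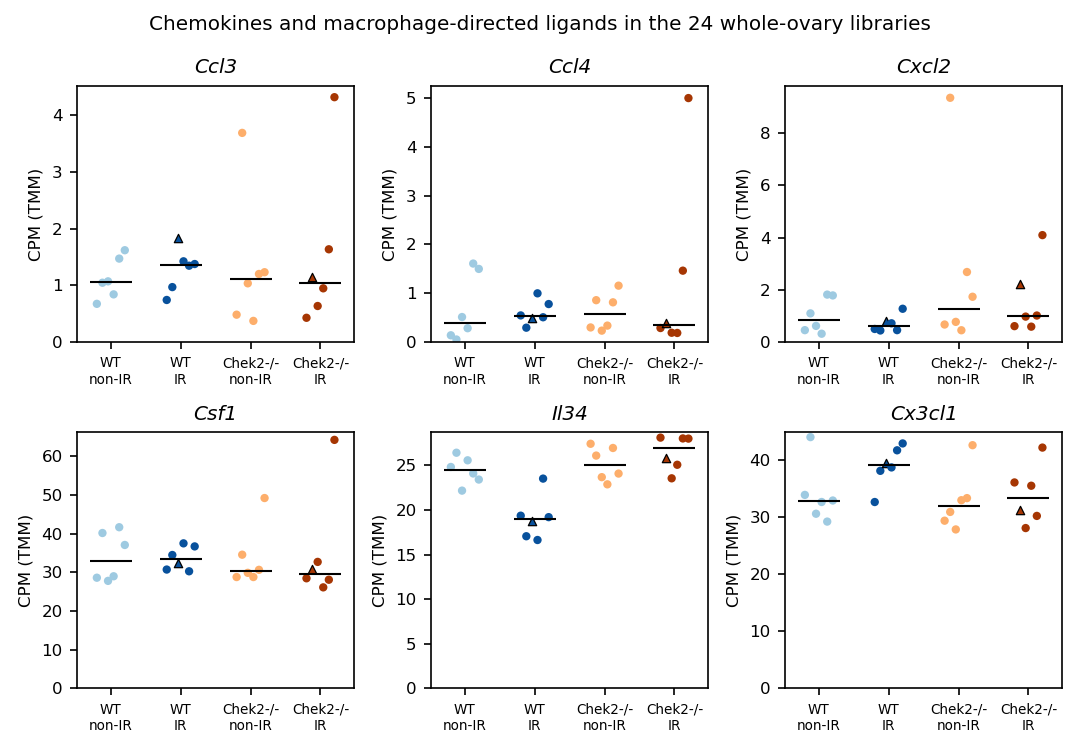
The chemokine genes Ccl3, Ccl4 and Cxcl2 and the ligands Csf1, Il34 and Cx3cl1 in TMM-scaled CPM in the 24 whole-ovary libraries, with 1 point per library, a line at the group median and triangles for the 2 libraries with high neutrophil genes. The chemokine groups overlap around medians of 0.339 to 1.36, and *Il34* is lower in the wild-type irradiated group, with a median of 19.0 against 24.5.

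*Cbr2*, a carbonyl reductase gene counted among resident macrophage genes, was read in macrophages and in oocytes. In bulk it rose with irradiation in wild type, from 0.0474, 0.233 and 0.957 to 7.29, 10.7 and 16.2 CPM with no overlap and a log2 change of 5.01 (SE 0.687, adjusted p = 3.25e-05, edgeR), and its response differed between genotypes by -7.66 (SE 1.03, adjusted p = 7.49e-05). In unmixed macrophages it stood at 61.5, 29.4, 49.2 and 46.4 CPM, on 16, 11, 15 and 13 UMIs, with ratios of 0.484 (0.20 to 1.10) in wild type and 0.949 (0.414 to 2.13) in *Chek2*-/- whose intervals hold 1, whereas in oocytes it stood at 0.407 and 105 CPM in wild type and 0.0828 and 0.0515 CPM in *Chek2*-/-. *Fermt3*, a kindlin gene of blood cells, likewise stood at 177, 195, 180.3 and 171 CPM in macrophages and at 0.783 and 132 CPM in wild-type oocytes.

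The rule marker *C1qb* was also read in oocytes. It stood at 25.5 CPM (22.8 to 28.4) in the 154 oocyte barcodes of the wild-type irradiated library, with 331 UMIs in 66 barcodes and at most 26 in 1, and at 4.64, 6.29 and 5.92 CPM in those of the wild-type non-irradiated, *Chek2*-/- non-irradiated and *Chek2*-/- irradiated libraries. *C1qa* and *C1qc*, whose products assemble with that of *C1qb*, stood at no more than 0.538 and 0.103 CPM there, and *Tyrobp* at no more than 0.331 CPM. In unmixed macrophages the 3 C1q genes had similar counts, for example 1302, 1149 and 1008 UMIs of *C1qa*, *C1qb* and *C1qc* in the wild-type irradiated library. The source of the *C1qb* reads in oocyte barcodes was not tested.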

How the data were processed

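Single-cell libraries were processed by the authors with Cell Ranger on mm10, and whole counts of UMIs for 31053 genes in 40594 barcodes were deposited before the study's filters on cells. For the 24 bulk libraries, KAPA mRNA libraries of paired ovaries, the authors ran Salmon 1.3.0 through nf-core/rnaseq and deposited estimated counts for 44674 genes, which are not scaled between libraries. The authors removed doublets with DoubletFinder and DoubletDecon and limited ribosomal UMIs to 50%, and neither step was applied here, though both kinds of filter were tried.

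The macrophage members, gene lists and tests were chosen with earlier results of these data known. Kept barcodes had at least 1000 genes and at most 20% mitochondrial UMIs. Granulosa, stromal, endothelial and oocyte comparison barcodes were kept barcodes with at least 4 markers of that list that were not members. Granulosa, stromal and endothelial ones were left out when they met the same limit for another list among these types. Oocyte ones were not filtered for markers of other types. UMIs of a gene were summed per library, divided by the summed UMIs of the same barcodes and given per 1000000 (CPM). Ratios had 0.5 added to each sum and 95% exact conditional binomial intervals, and shares had 95% Clopper-Pearson intervals. Intervals and floors of 3 counts cover counting error only. Lists were described over genes with at least 20 UMIs in the 2 libraries of a genotype together, with 1.5-fold as the limit. With 1 library per condition no test between single-cell conditions was made. Thinning to 3000 UMIs per barcode used a fixed seed. Scrublet was run per library in scanpy 1.11.5 (Python 3.11.15). Named genes were the 6 rule markers, list members, the 15 genes with the highest CPM over other barcodes among those with at least 200 UMIs, the 5 highest and 5 lowest ratios per genotype among genes with at least 100 UMIs, and genes the study names for radiation. *Hmox1*, *Nfkbia*, *Ccrl2* and *Id2* were given in more detail after their values were seen.

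After rounding of the bulk counts, the 26790 genes with at least 10 counts summed over the 24 libraries were scaled by TMM and fitted with 1 coefficient per group in edgeR 4.0.16 (R 4.3.3). All adjusted p-values in the text are from Benjamini-Hochberg adjustment of the edgeR quasi-likelihood p over all genes tested, and genes at 0.05 or less are called changed. Printed levels are TMM-scaled CPM. Nothing in the sources used here says whether bulk replicates came from separate litters, so p-values measure the spread between these libraries. DESeq2 1.42.0 was run beside edgeR. The fits were also run on simulated counts, and the outcome is not reported here. Promoters came from a RefSeq table for GRCm38.p6. Genes on chromosome 18 were left out of the gene lists, but not out of the count over all promoters. The search then covered 3 of 6 rule markers, 17 of 18 other macrophage genes and 14 of 20 chemokine and cytokine genes. The clustering, Harmony integration and tests over cells of the study were not used here.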

Additional observations from a re-analysis of the deposited data

Results flagged for a closer look

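Of 72 groups of 6 bulk libraries checked for a library far from the others by Dixon's ratio, 24 held one, and chance gives about 1 in 20. Most of these values came from 4 libraries. In wild-type irradiated replicate 3 the outlying CPM were *Tyrobp* 14.9, *Csf1r* 14.9, *Fcer1g* 12, *Lyz2* 102, *Itgam* 40.6 and *Spi1* 16.2. In *Chek2*-/- irradiated replicate 2 they were *Tyrobp* 16.2, *Fcer1g* 13.6, *Lyz2* 181, *Itgam* 56.6 and *Spi1* 14.3. These are the 2 libraries with 1432 and 1663 CPM of the neutrophil list, and they did not stand apart in *C1qa*, *C1qb* or *Cd68*.

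*Chek2*-/- replicates numbered 6 stood apart in both groups. The non-irradiated one held *C1qb* at 7.11, *Csf1r* at 13.9, *Csf1* at 49.2, *Cx3cl1* at 42.6 and *Cbr2* at 3.46 CPM, and the irradiated one *Csf1* at 64.2, *Ccl3* at 4.32, *Ccl4* at 5.00 and *Cxcl1* at 25.3 CPM. *Chek2*-/- non-irradiated replicate 2 was high in *Ccl3* at 3.69, *Cxcl2* at 9.36 and *Cxcl1* at 48.0 CPM, and wild-type non-irradiated replicate 2 in *Cx3cl1* at 44.0 CPM.

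The response to irradiation differed between genotypes, by the interaction test of edgeR, for *Cbr2* (-7.66 on the log2 scale, *Chek2*-/- minus wild type) and for *Il34* (0.43), where 22 of 29 alternatives ended the call. In data outside the macrophage barcodes, *C1qb* was read at 25.5 CPM in oocyte comparison barcodes of the wild-type irradiated library, above the 4.64 CPM in the non-irradiated one, and the difference was not tested, since there was 1 library of each.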

How the results depend on the processing

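The share of macrophage barcodes was 0.400% with at least 5 markers, 0.619% with at least 3, 0.381% after thinning to 2000 UMIs, 0.324% with granulosa, stromal or endothelial barcodes left out and 0.287% with 7 other types left out. With at least 3 markers, where oocyte barcodes entered, 3 of 17 wild-type and 2 of 16 *Chek2*-/- chemokine genes and 6 of 22 *Chek2*-/- p53 target genes were higher, with 6, 11 and 6 lower, and *Cxcl2* (0.778) and *Cd14* (0.791) in wild type and *Cd14* (0.689) and *Cdkn1a* (0.792) in *Chek2*-/- turned to below 1. With granulosa, stromal and endothelial barcodes left out, 7 of 11 wild-type p53 target genes were higher, and the share over all genes was not computed for that set. Of 264 single-cell gene ratios under the alternatives, 100 more lay outside the interval of the main value. The main values here are those of all 184 members, and the unmixed set was itself among the alternatives. Apart from the removal of the top barcode, the unmixed values were not put through the other settings.

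In bulk, the lists of rule markers, other macrophage genes, resident and MHC class II genes had 1 call (*Cbr2*) with irradiation in wild type, 1 in the interaction and 0 in the other comparisons under every alternative run. Over all genes DESeq2 called 14 for irradiation in *Chek2*-/-, 458 for the interaction and 2423 between genotypes, and fits of the compared groups alone called 1 and 785 for the first and the last. Leaving out each library gave 516 to 657 for irradiation in wild type, 2 to 4 in *Chek2*-/-, 221 to 323 for the interaction and 573 to 1794 between genotypes, with 1430 from all libraries, and the count fell by over 1.5 times without wild-type non-irradiated replicates 2 (675), 3 (716) or 4 (573) or *Chek2*-/- non-irradiated replicate 1 (807). The *Il34* interaction was called under 7 of 29 alternatives and was kept, among libraries left out, only without wild-type irradiated replicate 4, wild-type non-irradiated replicate 3, *Chek2*-/- non-irradiated replicates 1 or 5 or *Chek2*-/- irradiated replicate 3. Without the 2 neutrophil-rich libraries its adjusted p was 0.0853 (edgeR).

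The sources used here do not say whether a replicate number marks a litter or day. Correlations between same-numbered replicates ran from -0.194 to 0.657 and were over 0.1 for all 6 pairs in none of the 6 pairings of groups, so the libraries were treated as unpaired. They came closest between the *Chek2*-/- groups, with 5 of 6 pairs over 0.1 and 4 of 6 libraries nearest to their own number. With the replicate number as a block, edgeR called 661, 4, 281 and 2025 genes in the 4 comparisons and 1, 0, 1 and 0 macrophage genes, and the *Il34* interaction was 0.42 (adjusted p = 0.0516).

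Precision was limited by 22 to 33 unmixed macrophages per library, by 1 library per condition and by macrophage genes at a few CPM in whole ovaries.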

Other observations

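Lists not described above also had values in the unmixed macrophages. Of 9 genes for the uptake of dying cells 0 were at least 1.5-fold higher and 1 lower in irradiated wild type, with a median log2 ratio of -0.11, and 0 higher and 2 lower in *Chek2*-/-, with a median of -0.10. Over all genes 10.6% were higher and 15.5% lower in wild type and 11.6% and 10.8% in *Chek2*-/-. Other complement genes with enough UMIs numbered 4 in wild type, of which 2 were higher, and 5 in *Chek2*-/-, of which 1 was lower. *Trem2* stood at 1.45 (1.21 to 1.74) in wild type and 0.866 (0.722 to 1.04) in *Chek2*-/-, and *Mertk*, a TAM receptor gene, at 0.619 (0.341 to 1.11) and 1.22 (0.743 to 2.02). *Ms4a7* stood at 1.63 (1.38 to 1.94) and 1.04 (0.878 to 1.24).

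Genes known from microglia, the macrophages of the brain, were met in part. *P2ry12* was detected in 38.5, 57.6, 48.3 and 63.6% of the unmixed macrophages of the 4 libraries and *Gpr34* in 61.5, 60.6, 62.1 and 45.5%, whereas *Sall1* was at 0 UMIs in all 4. *Siglech*, which plasmacytoid dendritic cells also express, had 16 UMIs in 5 barcodes of the *Chek2*-/- non-irradiated library and 0 in the other 3. *Cd79b*, known from B cells, was detected in 38.5, 36.4, 37.9 and 40.9% of unmixed macrophages at 42.6 to 65.3 CPM, without a second B cell marker in any of them, and at 0.533 to 0.881 CPM in the other kept barcodes.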
